A study of Porphyridium purpureum with 12 samples.

Results

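Glycosyltransferases of family GT4 join a sugar from a nucleotide sugar donor to an acceptor while keeping the α configuration of the donor's bond. In photosynthetic cells the family includes the enzymes that add a sugar head group to plastid membrane lipids, and in bacteria it includes enzymes that build capsular polysaccharides. In Porphyridium purpureum, a unicellular red alga that coats itself with a sulfated exopolysaccharide, 7 of the 63 glycosyltransferase genes annotated by the study carry the GT4 label, and these 7 genes, of 9898 in the count table, are described here. They are all GT4 entries of that annotation and are described whatever their values. The choice was made with earlier results of these data known. The product names come from the study, and no enzyme activity can be read from these libraries.

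Messenger RNA of strain 1380/1A was sequenced from cells grown in photobioreactors under continuous light and taken at 4 levels of residual NaNO3. These were 1.5 g/L (nitrogen-replete, NR), 0.6 g/L (first nitrogen limitation, NL1), 0.5 g/L (second limitation, NL2) and 0.3 g/L (nitrogen deprivation, ND, which the paper names late-stage depletion). Each condition has 3 libraries, 12 in all. The labels describe them as technical replicates of 1 biological sample, while the paper also speaks of separate cultures. Read by the labels, p-values measure the spread between libraries and not between cultures. The conditions are successive points of the cultivation, so nitrate, culture age and growth phase cannot be told apart.

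The libraries held 6398926 to 30556820 counts. Library 3 of NR had the fewest counts and stood apart from the other NR libraries, at distances of 57.1 and 58.6 against 21.9 between those libraries on the variance-stabilized scale. Comparisons with NR that rest on it are therefore given without it as well. All 7 GT4 genes passed the filter on low counts in all 6 comparisons, and the lowest count of a member in any library was 90 (POR0521, NR library 3). Levels are CPM, counts relative to the TMM-scaled library size, as mean ± SD with n = 3. Conditions were compared in pairs in edgeR (quasi-likelihood F-test), with Benjamini-Hochberg adjusted p-values over all genes. DEGs are genes whose adjusted p was below 0.01 and whose log2FC, given ± SE, was 1 or more in size. Without gene lengths, levels of different genes cannot be ranked against each other, and each gene is compared with itself across conditions.

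By the edgeR test above, no GT4 gene was called higher in any of the 6 comparisons. Under other settings POR9558 was called higher in NL2 vs. NR, and without NR library 3 also in NL1 vs. NR. The putative glycosyltransferase POR0856 (GT4-D) fell to about a 3.12-fold lower level once nitrate became limiting. The putative glycosyltransferase POR6738 (GT4-A) and the digalactosyldiacylglycerol (DGDG) synthase POR8498 (GT4-C) were lowest under ND. The CapM-like POR9558 (GT4-B) was highest under NL2 and fell from NL2 to ND, and whether it was called higher in NL2 than in NR depended on the tool, the filter on low counts, the libraries in the fit and NR library 3. The second gene with a DGDG annotation, POR6466, had its highest mean level under ND. POR0521 and POR7266 were not DEGs in any comparison.

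The counts of DEGs were read against those of all genes tested. In NL1 vs. NR 0 of the 7 were higher, where 6.55% of all genes were, and 1 was lower, where 7.92% were. In NL2 vs. NR 0 were higher against 7.33% of genes and 1 was lower against 9.08%. In ND vs. NR the counts were 0 higher against 7.96% and 3 lower against 11.8%, and 2 of these 3 calls were lost on leaving out any ND library. In ND vs. NL1 0 were higher against 6.51% and 2 lower against 5.75%, and in ND vs. NL2 0 were higher against 6.96% and 3 lower against 6.52%. Comparisons that share a condition share its libraries, so these counts are not separate observations.

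The libraries of both conditions did not overlap for 1 of the 7 genes in NL1 vs. NR (49.7% of all genes), 5 in NL2 vs. NR (52.4%), 6 in ND vs. NR (56.4%), 5 in ND vs. NL1 (50.9%), 5 in ND vs. NL2 (52.6%) and, between the NL conditions, 0 (15.1%). So many genes of the table had libraries without overlap that this is given for members as a description. These counts and percentages are on the TMM scale. Relative to library totals, POR0521 and POR7266 overlapped in ND vs. NR, and POR8498 and POR7266 in NL2 vs. NR. So did POR6466 in ND vs. NL1 and in ND vs. NL2.

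**Figure D1:**
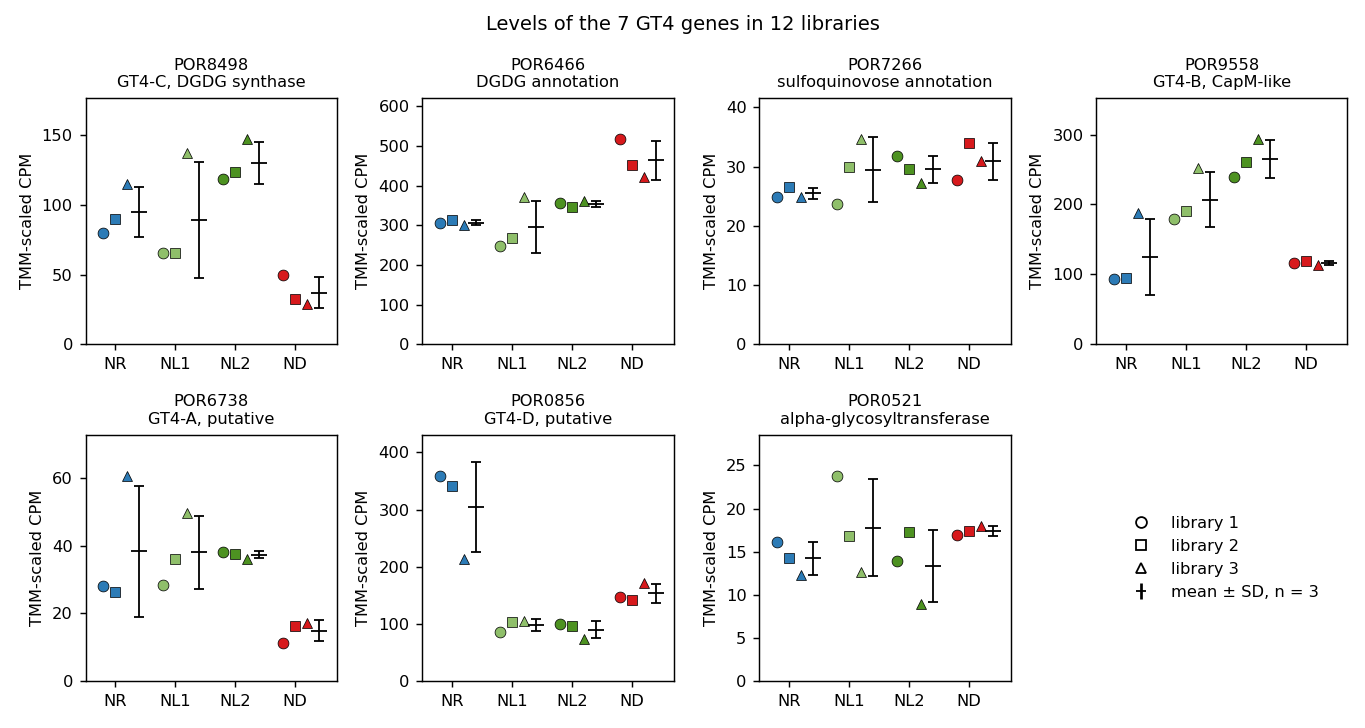
TMM-scaled CPM of each GT4 gene (vertical axis, from 0, a scale of its own per panel) in the 3 libraries of NR, NL1, NL2 and ND (circle, square and triangle for libraries 1, 2 and 3), with the mean ± SD beside them. POR8498 and POR6738 are lowest in all ND libraries, POR0856 is highest in all NR libraries, and on this TMM scale POR6466 is highest in all ND libraries.

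DGDG synthases add a second galactose to monogalactosyldiacylglycerol (MGDG) and so make one of the main lipids of the thylakoid membrane. POR8498 (GT4-C, on scaffold scf209_3) is annotated as the chloroplastic DGDG synthase 2. Its CPM was 80.0, 90.0 and 114.9 in NR libraries 1 to 3. In NL1 it was 65.4, 65.4 and 137.2. In NL2 it was 119.0, 123.9 and 147.4, and in ND 49.6, 32.6 and 29.0. Every ND library therefore lay below every library of the other conditions, and library 3 of NL1 was well above its partners.

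The mean of POR8498 was 94.97 ± 18.0 CPM under NR, 89.3 ± 41.5 under NL1, 130.1 ± 15.2 under NL2 and 37.1 ± 11.0 under ND. It fell in ND vs. NR by a log2FC of -1.42 ± 0.23 (adjusted p = 0.00080), in ND vs. NL1 by -1.27 ± 0.27 (adjusted p = 0.0015) and in ND vs. NL2 by -1.81 ± 0.17 (adjusted p = 6.75e-07). The order was NL2, NR, NL1 and ND, and NL2 and NR (log2FC 0.44 ± 0.17, adjusted p = 0.064) and NR and NL1 (-0.09 ± 0.29 for NL1 vs. NR, adjusted p = 0.85) were not separated by the test. Without NR library 3 the log2FC of NL2 vs. NR was 0.61 (adjusted p = 0.0023), past the p threshold and under the fold threshold. The call in ND vs. NL1 rested on NL1 library 3 for its size, as the log2FC was -0.80 without that library (adjusted p = 0.0025). Without ND library 2 or 3 the adjusted p of this call was 0.011 or 0.018, and both DESeq2 tests gave 0.014 and 0.012, so the call was lost in each case.

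POR6466 (scf209_3), whose annotation reads digalactosyldiacylglycerol alone, went the other way under ND. Its CPM was 305.5, 312.9 and 301.7 under NR, 248.7, 267.9 and 370.6 under NL1, 355.9, 345.5 and 359.9 under NL2, and 517.4, 450.8 and 421.8 under ND. On this TMM scale the ND libraries were above all others, and the NR and NL2 libraries were close to each other within each condition. Relative to library totals, ND library 3 (361.3 CPM) lay below NL1 library 3 (368.2) and NL2 library 3 (372.4). The mean was 306.7 ± 5.66 CPM under NR, 295.7 ± 65.6 under NL1, 353.8 ± 7.42 under NL2 and 463.3 ± 49.1 under ND.

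This gene was not a DEG, since the log2FC stayed under 1. It was 0.65 ± 0.15 in ND vs. NL1 (adjusted p = 0.0035) and 0.39 ± 0.09 in ND vs. NL2 (adjusted p = 0.0028). In ND vs. NR it was 0.53 ± 0.14 (adjusted p = 0.011, and 0.00038 without NR library 3). The size depended on the scaling: TMM factors of the ND libraries were 0.833 to 0.857 against 0.994 to 1.14 elsewhere, and scaling by library totals alone moved the median log2FC of all genes in ND vs. NR to -0.35. Under that scaling POR6466 stood at 0.21 in ND vs. NR (adjusted p = 0.21), 0.34 in ND vs. NL1 (adjusted p = 0.046) and 0.09 in ND vs. NL2 (adjusted p = 0.40), positive but past the p threshold in none of them.

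A ratio of both DGDG-annotated genes within a library is free of the scaling. The log2 ratio of POR8498 to POR6466 counts was -1.93, -1.80 and -1.39 under NR, -1.93, -2.04 and -1.43 under NL1, -1.58, -1.48 and -1.29 under NL2, and -3.38, -3.79 and -3.86 under ND. All ND ratios lay below all others, and the other conditions overlapped. The mean was 2.05 lower in ND than in the 6 NL libraries (NL1 and NL2 together), a 4.15-fold change, with an exact two-sided permutation p of 0.024 (0.032 adjusted over the 4 ratio comparisons), the smallest p that 3 against 6 libraries allow. NL and NR differed by 0.08, with an exact permutation p of 0.71. This pair was chosen with earlier results of these data known, so these p-values are not separate support for the fold changes above.

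**Figure D2:**
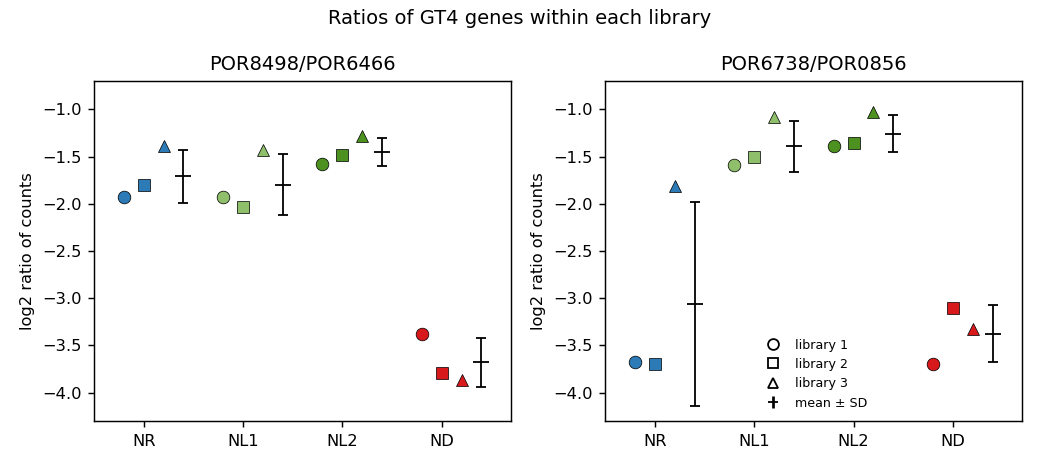
Log2 ratio of the counts of POR8498 to POR6466 (left) and of POR6738 to POR0856 (right) within each of the 12 libraries, with 0.5 added to each count (vertical axis, log2 scale). Points are libraries 1, 2 and 3 of a condition and bars the mean ± SD (n = 3). The left ratio drops in ND alone, from a mean of -1.45 in NL2 to -3.68, and the right ratio is high under NL1 and NL2 and low under ND and in NR libraries 1 and 2.

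POR7266 (scf295_1) is annotated as a UDP-sulfoquinovose glycosyltransferase. Enzymes of this name make sulfoquinovosyldiacylglycerol, the sulfur-containing lipid of plastid membranes. Its level varied least between conditions among the lipid-annotated members, at 25.5 ± 1.00 CPM under NR, 29.4 ± 5.49 under NL1, 29.5 ± 2.27 under NL2 and 30.9 ± 3.08 under ND. The 12 libraries lay between 23.7 and 34.7 CPM. The log2FC was at most 0.21 ± 0.20 in the 6 comparisons, and in ND vs. NR its 95% interval ran from -0.18 to 0.60, so that a change of a log2FC of 1 lies outside this interval.

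MGDG, the substrate of DGDG synthases, is made by enzymes of family GT28, and 2 GT28 genes carry this annotation in the study. POR5938 rose in NL1 vs. NR (log2FC 1.145 ± 0.25, adjusted p = 0.0072) and NL2 vs. NR (1.28 ± 0.22, adjusted p = 0.0016), and without NR library 3 by 1.41 and 1.55. It fell in ND vs. NL1 (-1.33 ± 0.19, adjusted p = 7.33e-05) and in ND vs. NL2 (-1.47 ± 0.16, adjusted p = 2.66e-06). Its means were 26.2 ± 8.17 CPM under NR, 57.5 ± 12.2 under NL1, 63.8 ± 2.33 under NL2 and 22.9 ± 5.10 under ND. POR7326 was at 26.1 ± 1.77, 23.6 ± 1.43, 21.9 ± 5.36 and 22.4 ± 2.90 CPM in the same order and was not called in any comparison.

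POR9558 (GT4-B, scf209_3) is named after CapM, a bacterial enzyme of capsular polysaccharide synthesis, and the study's table of measured transferases also lists it as a D-inositol-3-phosphate glycosyltransferase. Its CPM was 93.2, 94.0 and 187.6 under NR, 178.7, 190.2 and 251.4 under NL1, 239.8, 260.1 and 293.6 under NL2, and 116.6, 119.2 and 112.8 under ND. NR library 3 lay 2.00-fold above the mean of the other NR libraries and within the range of NL1. The NL2 libraries were all above the NR and ND libraries.

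The means of POR9558 were 124.9 ± 54.3 CPM under NR, 206.8 ± 39.1 under NL1, 264.5 ± 27.2 under NL2 and 116.2 ± 3.23 under ND. It fell in ND vs. NL2 by a log2FC of -1.19 ± 0.10 (adjusted p = 1.60e-07). In ND vs. NL1 the log2FC was -0.83 ± 0.14 (adjusted p = 0.00021), short of the fold threshold, and -1.14 with scaling by library totals. In NL2 vs. NR it was 1.07 ± 0.26 with an adjusted p of 0.01001, which missed the threshold by the last digit, while both DESeq2 tests called it higher (1.06, adjusted p = 0.00035 and 0.00042). In NL1 vs. NR it was 0.73 ± 0.28 (adjusted p = 0.069).

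The call in NL2 vs. NR was also made with no filter (1.08, adjusted p = 0.0086), with at least 1 count required in every library (adjusted p = 0.0093) and with all 4 conditions in 1 fit (adjusted p = 0.0010). Without NR library 3, POR9558 rose in NL1 vs. NR by a log2FC of 1.14 (adjusted p = 0.00036) and in NL2 vs. NR by 1.49 (adjusted p = 1.48e-06), and ND vs. NR moved from -0.16 ± 0.25 to 0.24 (adjusted p = 0.075). The NL conditions were not separated by the test (NL2 vs. NL1 0.35 ± 0.15, adjusted p = 0.53).

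POR6738 (GT4-A, scf209_3) is a putative glycosyltransferase with no named donor or acceptor. Its CPM was 28.2, 26.2 and 60.8 under NR, 28.3, 36.2 and 49.7 under NL1, 38.1, 37.7 and 36.1 under NL2, and 11.3, 16.3 and 17.2 under ND. NR library 3 was 2.23-fold above the mean of the other NR libraries and was the highest of all 12 libraries. Every ND library was below every other library.

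POR6738 fell in ND vs. NR (log2FC -1.42 ± 0.33, adjusted p = 0.0073), in ND vs. NL1 (-1.35 ± 0.22, adjusted p = 0.00025) and in ND vs. NL2 (-1.32 ± 0.18, adjusted p = 2.44e-05). Its means were 38.4 ± 19.4 CPM under NR, 38.1 ± 10.8 under NL1, 37.3 ± 1.03 under NL2 and 14.9 ± 3.18 under ND. NR, NL1 and NL2 were not separated, with a log2FC of -0.04 to 0.003 among them. Without NR library 3 these values were 0.49 in NL1 vs. NR (adjusted p = 0.10) and 0.45 in NL2 vs. NR (adjusted p = 0.024), and the log2FC of ND vs. NR was -0.94 (adjusted p = 0.0011), under the fold threshold. Leaving out ND library 1, 2 or 3 gave an adjusted p of 0.041, 0.027 or 0.025, so the call against NR was lost in each case, while those against NL1 and NL2 were kept.

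POR0856 (GT4-D, scf295_1), the other putative glycosyltransferase, had its highest level before nitrate became limiting. Its CPM was 359.2, 341.0 and 213.6 under NR, 85.3, 102.5 and 105.3 under NL1, 99.5, 96.6 and 73.8 under NL2, and 147.0, 140.9 and 171.8 under ND. The conditions NR, ND and NL did not overlap in any library, and NR library 3 was the lowest of its condition, at 0.61 of the mean of the others.

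The means of POR0856 were 304.6 ± 79.3 CPM under NR, 97.7 ± 10.8 under NL1, 89.9 ± 14.1 under NL2 and 153.2 ± 16.4 under ND. It fell in NL1 vs. NR by a log2FC of -1.64 ± 0.22 (adjusted p = 0.00048) and in NL2 vs. NR by -1.78 ± 0.22 (adjusted p = 0.00024), a 3.43-fold lower level. In ND vs. NR the log2FC was -1.06 ± 0.20 (adjusted p = 0.0023), close to the fold threshold. This last call was lost without NR library 1 or 2 (-0.93 and -0.97) and without ND library 1, 2 or 3 (adjusted p = 0.019, 0.019 and 0.010). It was also lost with all 4 conditions in 1 fit (-0.997). Without NR library 3 the 3 values were -1.84, -1.97 and -1.27 and all were called.

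From NL to ND the level of POR0856 was higher again without reaching the fold threshold. The log2FC was 0.65 ± 0.13 in ND vs. NL1 (adjusted p = 0.00084) and 0.77 ± 0.13 in ND vs. NL2 (adjusted p = 0.00016). With library totals these values were 0.34 (adjusted p = 0.032) and 0.48 (adjusted p = 0.0070). NL1 and NL2 were not separated (-0.12 ± 0.14 for NL2 vs. NL1, adjusted p = 0.82), so the order was NR, ND and then both NL conditions.

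The ratio of both putative glycosyltransferases within a library changed in both steps. From NR to NL POR0856 fell while POR6738 had a log2FC near 0, and from NL to ND POR6738 fell. The log2 ratio of POR6738 to POR0856 was -3.67, -3.70 and -1.81 under NR, -1.59, -1.504 and -1.08 under NL1, -1.39, -1.36 and -1.03 under NL2, and -3.70, -3.11 and -3.32 under ND. No NL library overlapped with NR or ND, and NR library 3 lay near the NL libraries. The mean was 1.74 higher in NL than under NR, 3.33-fold, and 2.05 lower in ND than in NL, 4.15-fold, each with an exact two-sided permutation p of 0.024 (0.032 adjusted over the 4 ratio comparisons). Without NR library 3 the NL vs. NR difference was 2.36, and 2 against 6 libraries allow no exact p below 0.071. As with the other ratio, the pair was chosen with earlier results known. Its p-values restate the separate courses of both genes and are not separate support for them.

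POR0521 (scf246_12) is annotated as an α-glycosyltransferase. It had the fewest counts of the 7 genes, 90 to 544 per library. Its CPM was 16.2, 14.3 and 12.3 under NR, 23.8, 16.8 and 12.7 under NL1, 13.9, 17.3 and 8.92 under NL2, and 16.9, 17.4 and 18.0 under ND. On this TMM scale the conditions overlapped except ND with NR, where the lowest ND library was above the highest NR library. Relative to library totals, ND (14.11 to 15.37 CPM) and NR (14.06 to 17.2) overlapped as well. The log2FC ran from -0.41 ± 0.29 in NL2 vs. NL1 to 0.38 ± 0.24 in ND vs. NL2 (adjusted p = 0.22). The 95% interval of ND vs. NR was -0.30 to 0.73 and that of NL2 vs. NL1 was -1.03 to 0.22, so a difference between the NL conditions of a log2FC of -1 lies within what these libraries leave possible.

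**Figure D3:**
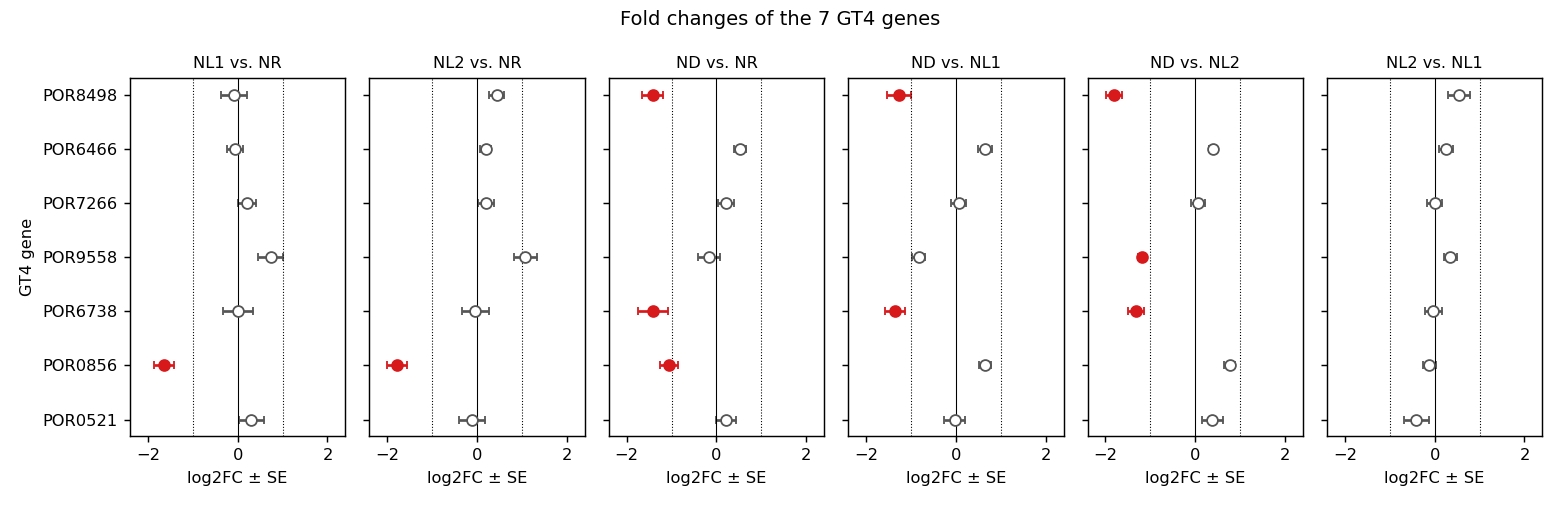
Log2FC ± SE (horizontal axis) of the 7 GT4 genes (rows) in the 6 comparisons (panels). Filled red points are DEGs, open points are not, and dotted lines mark a log2FC of -1 and 1. All filled points lie on the lower side. They are POR0856 in the comparisons with NR, POR8498 and POR6738 in the comparisons of ND, and POR9558 in ND vs. NL2.

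POR6738 and POR8498 were lower than under NL1 and NL2 alike, which held for 4.69% of the genes tested. POR0856 was lower in both NL conditions than under NR, as were 7.18% of genes. In NL2 vs. NL1 no gene of the table was called by edgeR, while 827 genes, 9.08%, had an unadjusted p under 0.05, 1 of them a GT4 gene (POR9558), and DESeq2 called 2 genes, none of them GT4. Without NL1 library 3 edgeR called 37 genes higher and 3 lower, again none of them GT4. Over the 5 comparisons other than NL2 vs. NL1, 4 of the 7 GT4 genes were called at least once. This held for 18 of the 54 other glycosyltransferase genes tested and for 32.8% of all genes tested.

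The median log2FC of the 7 members was 0.00 in NL1 vs. NR (0.01 for all genes), 0.19 in NL2 vs. NR (-0.01), -0.16 in ND vs. NR (-0.04), -0.03 in ND vs. NL1 (-0.03) and 0.06 in ND vs. NL2 (-0.02). Of the 56 other glycosyltransferase genes, 54 passed the filter in each comparison. In NL1 vs. NR these split into 6 higher and 5 lower, in NL2 vs. NR into 8 higher and 5 lower, and in ND vs. NR into 3 higher and 6 lower. Without NR library 3 the counts in these comparisons were 6 and 6, 9 and 5, and 3 and 5. In NL1 vs. NR they were 5 and 3 without NL1 library 1, and 4 and 3 without NL1 library 2 or 3. In NL2 vs. NR they were 8 and 2 without NL2 library 1 or 2, and 6 and 2 without NL2 library 3. In ND vs. NL1 2 were higher and 7 lower, and in ND vs. NL2 3 were higher and 6 lower.

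The donors of GT4 enzymes come from nucleotide sugar synthesis, whose 7 genes listed here were picked by the study from these same data, so that their direction is not independent evidence. Of the 7, 6 were called higher in NL1 vs. NR, where 6.55% of all genes were, and 6 in NL2 vs. NR, against 7.33%, in both with or without NR library 3. In NL1 vs. NR the count was 4 without NR library 1, NR library 2 or NL1 library 3, and with library totals. UGP2 (POR1962), which makes UDP-glucose, rose in NL2 vs. NR by a log2FC of 1.41 ± 0.17 (adjusted p = 0.00020). PMM (POR7125) and GMPP (POR2740), enzymes on the way to GDP-mannose, rose by 1.74 ± 0.14 and 1.70 ± 0.19 in the same comparison. In ND vs. NL2 4 of the 7 were lower, against 6.52% of all genes, and 1 was higher, against 6.96%. PGM2 (POR0605), a phosphoglucomutase, was the 1 that rose (1.09 ± 0.12, adjusted p = 3.82e-06). This call was lost without ND library 1 and with library totals. The count of lower genes was 5 with library totals and 3 without ND library 3.

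The make-up of the GT4 counts changed with these shifts. GT4 genes together took 0.0999 ± 0.0042% of all counts under NR, 0.0807 ± 0.0129% under NL1, 0.0949 ± 0.0028% under NL2 and 0.0701 ± 0.0035% under ND. These percentages are of library totals, and scaling by library totals put the median log2FC of all genes in ND vs. NR at -0.35. The lower percentage under ND is therefore not by itself a lower level of the family. POR6466 held 33.7 ± 0.81% of the GT4 counts under NR, 38.1 ± 0.38% under NL1, 38.5 ± 0.96% under NL2 and 55.5 ± 2.87% under ND. POR0856 held 33.5 ± 8.90% under NR, 12.8 ± 1.77% under NL1, 9.83 ± 1.78% under NL2 and 18.5 ± 2.61% under ND. POR9558 held 13.7 ± 5.86% under NR and 28.8 ± 2.16% under NL2, and POR8498 went from 14.1 ± 1.25% in NL2 to 4.41 ± 1.05% under ND. A share counts reads, so a longer transcript takes a larger share at equal copy number, and shares of different genes cannot be ranked. The change of a share also depends on the other members and is not by itself a change of that gene. From NL2 to ND the share of POR6466 rose with a log2FC of 0.39, while POR9558, POR8498 and POR6738 fell.

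**Figure D4:**
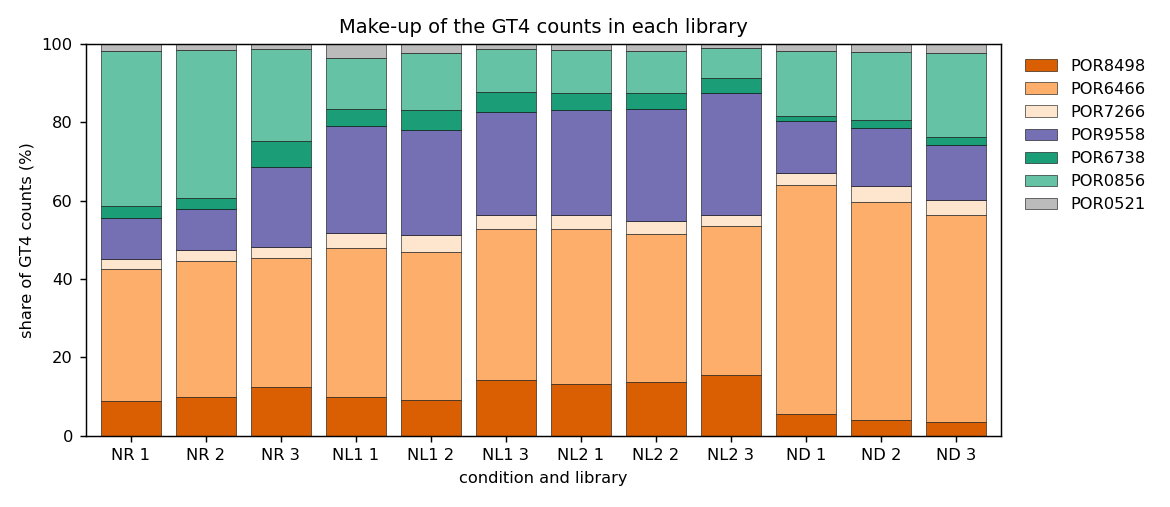
Share of the counts of the 7 GT4 genes (vertical axis, percent, summing to 100) that each gene took in each of the 12 libraries (horizontal axis), 1 colour per gene. POR0856 takes the most in NR libraries 1 and 2 and less in every NL library, POR9558 takes more in the NL libraries, and POR6466 takes over 50% in every ND library.

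Across the 12 libraries, members of the family did not follow a shared course. POR6738 and POR8498 were the most alike pair (Pearson's r of log2 CPM 0.81, and 0.82 over 11 libraries without NR library 3), and POR9558 and POR0856 the most opposed (-0.82, and -0.87 without that library). These values are descriptions, since the libraries of a condition share its mean. The same holds for the most similar genes outside the family.

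By the same measure over 9254 genes, the gene most like POR9558 was POR9415 (r = 0.99), with means of 127.6, 233.8, 280.9 and 128.8 CPM under NR, NL1, NL2 and ND. For POR0856 it was POR9171 (r = 0.98), at 66.2, 18.8, 17.4 and 28.7 CPM. For POR8498 it was POR9466 (r = 0.96), for POR6738 POR0946 (r = 0.96) and for POR6466 POR8117 (r = 0.94). POR7266 and POR0521 had no gene with r over 0.9, and their closest were POR0283 (r = 0.89) and POR1963 (r = 0.86), the latter at a mean of 2.41 CPM or less in each condition.

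Among the other glycosyltransferases, POR9558 was most like POR4276 of family GT8 (r = 0.94), which was called higher in NL1 vs. NR (1.11) and NL2 vs. NR (1.42) and lower in ND vs. NL1 (-1.33) and ND vs. NL2 (-1.65). POR8498 was most like POR5778, also GT8 (r = 0.91), at 79.2, 119.2, 165.7 and 38.4 CPM. POR0856 was most like POR3489 of family GT14 (r = 0.89), at 95.5, 36.2, 40.0 and 45.2 CPM. POR6738 was closest to POR7120 of GT5 (r = 0.89), POR6466 to POR2060 of GT77 (r = 0.84), POR0521 to POR4449 of GT10 (r = 0.69) and POR7266 to POR6603 of GT35 (r = 0.56). Many other genes were closer to each member. Among all 9254 genes the ranks were 27 (POR4276), 42 (POR5778), 162 (POR3489), 57 (POR7120), 95 (POR2060), 79 (POR4449) and 550 (POR6603).

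Of the 7 GT4 genes, 4 (POR6738, POR9558, POR8498 and POR6466) lie on scaffold scf209_3, which holds 10.8% of the genes of the table. A further 2 (POR0856 and POR7266) lie on scf295_1, which holds 26.5%, and POR0521 lies on scf246_12. Of the 56 other glycosyltransferase genes, 11 lie on scf209_3 and 25 on scf295_1. The 4 genes on scf209_3 did not move together, since POR6466 stood highest under ND and POR6738 and POR8498 stood lowest there. The table gives scaffolds without positions, so the distance between these genes is not known here.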

How the data were processed

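The deposited table holds raw counts per gene, which the authors made by aligning paired reads of stranded mRNA libraries with STAR 2.7.8a and counting them with featureCounts 2.0.1 on version 2 gene models. These deposited counts are not normalized, and the strand setting is not stated, so reads of overlapping genes may not be told apart. Pairs of conditions were compared in edgeR 4.0.16 under R 4.3.3, using the libraries of those conditions. Low counts were removed by filterByExpr (minimum count 10), TMM factors were applied, and the quasi-likelihood F-test was run with Benjamini-Hochberg adjustment across the genes kept. The SE is the log2FC divided by the square root of F, and 95% intervals use the t distribution of the fit. Ratios within libraries were compared by exact permutation tests (SciPy). DESeq2 1.42.0, other scalings, other filters, a replicate block and leaving out each library were tried as alternatives. The procedure was also run on counts simulated from edgeR's own fitted means and dispersions. Such counts hold no single deviating library and no spread between cultures, so they do not test those limits. Named were all 7 GT4 genes, both MGDG-annotated genes, 4 nucleotide sugar genes and the genes most like each member. Members, lists and tests were chosen with earlier results of these data known. The authors' own fold changes were not used.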

Additional observations from a re-analysis of the deposited data

How the results depend on the processing

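In NL2 vs. NR, 2 GT4 genes instead of 1 were called by both DESeq2 tests, with no filter, with at least 1 count in every library and with all 4 conditions in 1 fit, as POR9558 then passed (adjusted p 0.00035 to 0.0093, and 0.010 to 0.022 under the scalings that left it uncalled). In ND vs. NL1, both DESeq2 tests called 1 gene instead of 2, as POR8498 had adjusted p of 0.014 and 0.012. Library totals gave 3 calls there, as POR9558 then passed (-1.14). With all 4 conditions in 1 fit, 2 genes instead of 3 were called in ND vs. NR, as POR0856 was at -0.997. With no minimum fold, 5 genes were called in ND vs. NL1 and 5 in ND vs. NL2. Leaving out 1 library gave 1 to 2 calls in NL1 vs. NR, NL2 vs. NR, ND vs. NR and ND vs. NL1, always 3 in ND vs. NL2 and 0 in NL2 vs. NL1. With NL2 libraries alone in place of NL, the ratio POR8498/POR6466 differed by -2.23 in ND, and POR6738/POR0856 by 1.80 from NR and by -2.12 in ND, where 3 against 3 libraries allow no exact p below 0.10. Leaving out 1 library gave -2.20 to -1.96 for POR8498/POR6466 in ND vs. NL, -0.029 to 0.24 in NL vs. NR, 1.42 to 2.36 for POR6738/POR0856 in NL vs. NR and -2.19 to -1.89 in ND vs. NL.

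Of 588 alternative fits of single members, 531 kept sign and call, 9 gained a call, 15 lost one and 33 changed sign, none of them for a called value. POR6738 in NL1 vs. NR changed sign at -0.017 (both DESeq2 tests), -0.010 (DESeq2 size factors), -0.096 (library totals), -0.004 (at least 1 count in every library) and 0 (all conditions in 1 fit). Library totals gave -0.094 for POR0521 and -0.104 for POR7266 in ND vs. NR, and for POR7266 -0.241 in ND vs. NL1, -0.233 in ND vs. NL2 and -0.008 in NL2 vs. NL1. Leaving out 1 library spanned 0 for POR6738 (-0.24 to 0.49 in NL1 vs. NR, -0.25 to 0.45 in NL2 vs. NR, -0.21 to 0.21 in NL2 vs. NL1), POR8498 (-0.53 to 0.10 in NL1 vs. NR), POR6466 (-0.25 to 0.062 in NL1 vs. NR) and POR9558 (-0.33 to 0.24 in ND vs. NR). It also did so for POR0856 (-0.21 to 0.002 in NL2 vs. NL1), POR0521 (-0.34 to 0.11 in NL2 vs. NR, -0.20 to 0.24 in ND vs. NL1) and POR7266 (-0.066 to 0.22 in ND vs. NL1, -0.001 to 0.14 in ND vs. NL2, -0.13 to 0.14 in NL2 vs. NL1). The causes were not tested.

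Replicate numbers did not pair the libraries: deviations of same-numbered libraries correlated at -0.22 to 0.10, and 4 of 18 matched best with their own number. With the replicate block, 2 GT4 genes were called in NL2 vs. NR and the other counts were unchanged, and the sign turned for POR6738 in NL2 vs. NR (0.061) and NL2 vs. NL1 (0.006) and for POR0521 in ND vs. NL1 (0.019).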
